A study of Mus musculus with 3 samples.

Results

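The 37 genes described here encode the machinery of glycolysis and its hypoxia-linked control: glucose and lactate transporters (4 genes), glycolytic enzymes (19), regulators of glycolytic flux (3), the alpha subunits of the hypoxia-inducible factors HIF-1 and HIF-2 (2), and HIF target genes that act outside glycolysis (9). They were listed by function rather than by their values, though with earlier results of these data known. A member was measured where at least 1 probe was assigned to it and to no other gene, which held for 34 of the 37, out of 19938 genes measured in all. Gapdh was matched only by probes that also match its pseudogene copies, and no probe was listed under the names Gpi1 or Eno1. Ero1l was measured under its current symbol, Ero1a.

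Expression was measured in CD4+ T cells from spleens of OT-II TCR transgenic mice (strain B6.Cg-Tg(TcraTcrb)425Cbn/J), whose T cell receptor recognises an ovalbumin peptide. Naive cells, sorted as CD4+CD25-CD62LhighCD44low, were activated with that peptide on T-cell-depleted splenic antigen-presenting cells from Il23a-/- mice, so every culture lacked IL-23 made by those presenting cells. Th22 cells were given IL-6 alone, Th17 cells IL-6 with TGFβ, and Th0 cells no added cytokine. The cells were purified magnetically after 60 hours and hybridised to 1 Affymetrix array per condition. The labels do not give the age of the animals or whether animals were pooled.

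Activated T cells take up glucose and convert much of it to lactate even when oxygen is present, a shift that supplies precursors for growth and division. HIF-1 and HIF-2 are transcription factors whose alpha subunits are marked by prolyl hydroxylases in oxygen and then degraded. When stabilised by low oxygen, or induced in activated lymphocytes by receptor and cytokine signals, HIF-1 switches on glucose transporters, most glycolytic enzymes, and genes for oxygen sensing, mitophagy and vessel growth. In T cells HIF-1 alpha is known for its part in the balance between Th17 and regulatory T cells.

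With 1 array per group no difference below has a replicate check and no test was possible. The deposited values are differences from each probe's median over the 3 arrays, taken here as log2, so they carry no expression level. A partial gauge of technical error, the disagreement between probes of the same gene, came from genes with several probes. In 852 such genes that were not equal on all arrays, 95% of probe pairs lay within 0.39 log2 of each other for Th17 minus Th22, 0.32 for Th22 minus Th0 and 0.42 for Th17 minus Th0. These values are called the probe range. They leave out the spread between cultures and any error that the probes of an array share. A difference beyond the probe range is therefore not shown to be real. Of all genes 37.7% were exactly equal on the 3 arrays, among them abundant housekeeping genes (Rplp0, Rps3 and Tubb5) as well as genes of liver and skin (Alb and Krt1). A value of 0 on every array therefore cannot be read as absence or as steady expression.

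Most of the measured glycolysis and hypoxia genes had their highest value on the Th22 array, by small amounts. Of 34 members 23 (67.6%) were highest in Th22, 5 in Th0 and 2 in Th17, and 4 were equal on all arrays. Over all genes 13.8% were highest in Th22, 18.5% in Th0 and 18.3% in Th17. Without the genes equal on all arrays the shares highest in Th22 were 76.7% of 30 members and 22.1% of 12431 genes. Th17 was the lowest array in 17 of 34 members, against 19.3% of all genes. Th22 was the lowest in 0, against 17.3% of all genes. Among genes not equal on all arrays Th17 was the lowest in 56.7% of 30 members and 31% of 12431 genes. This pattern was noticed in the values and then counted. The 5 measured T cell marker genes (Cd3d, Cd3e, Cd3g, Cd4 and Cd28) were also highest in Th22 in 5 of 5, with a median of 0.18 log2 for Th22 minus Th0 and of -0.32 for Th17 minus Th22. The part of this shift in the members' pattern was not tested. In bulk samples, fewer cells of a type and less RNA per cell cannot be told apart.

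**Figure D1:**
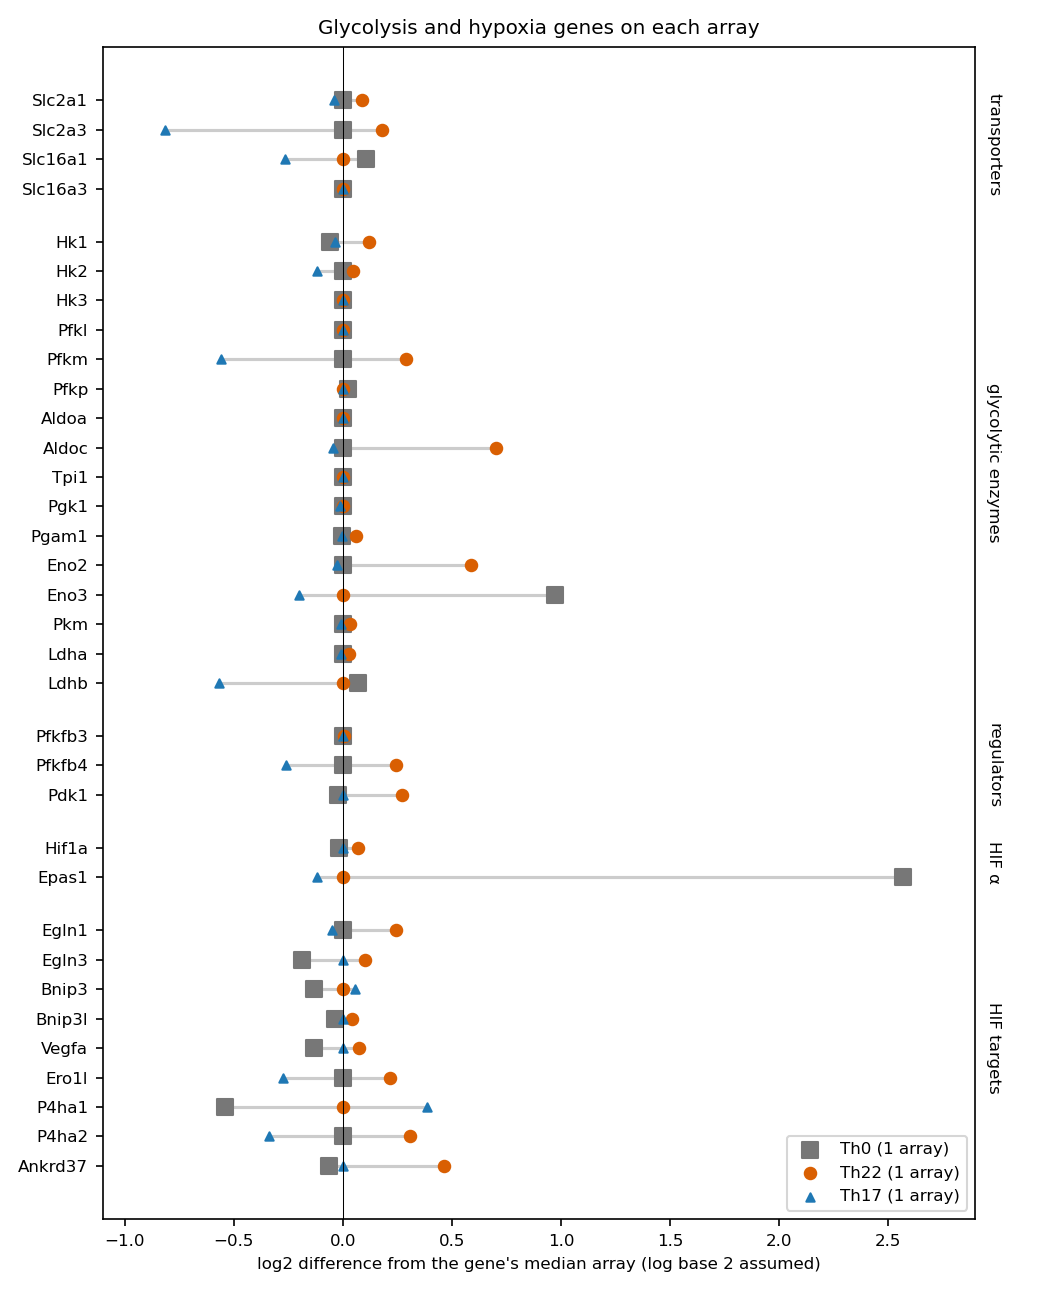
Value of each measured member on the Th0 (squares), Th22 (circles) and Th17 (triangles) arrays, as the log2 difference from the gene's median array, with grey lines spanning the 3 arrays. Epas1 stands at 2.57 on the Th0 array, and most other symbols to the right of 0 are Th22 circles.

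Few members passed 2-fold. For Th17 minus Th22, 0 of 34 lay 2-fold or more above and 0 lay 2-fold or more below, where 1.1% and 1.5% of all genes did. The 3 comparisons share arrays and are not independent. For Th22 minus Th0, 0 were higher and 1 was lower, against 0.547% and 0.261% of all genes. For Th17 minus Th0, 0 were higher and 2 lower, against 1.47% and 1.56%. At 1.5-fold, a difference of 0.585 log2, 5 of 34 (14.7%) were lower in Th17 than in Th22 and 0 higher, against 3.37% and 2.12% of all genes. At the same threshold 2 members were higher in Th22 than in Th0 and 2 lower (1.6% and 0.808% of all genes), and 1 was higher in Th17 than in Th0 and 4 lower (2.98% and 3.34%). The members past 1.5-fold in any comparison were Slc2a3, Pfkm, Aldoc, Eno2, Eno3, Ldhb, Epas1, P4ha1 and P4ha2. They made up 26.5% of the measured members, against 8% of all genes. The nearest member past 2-fold was Eno3, which spanned 1.17 log2, and the nearest short of it was Slc2a3, which spanned 0.9966 log2.

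**Figure D2:**
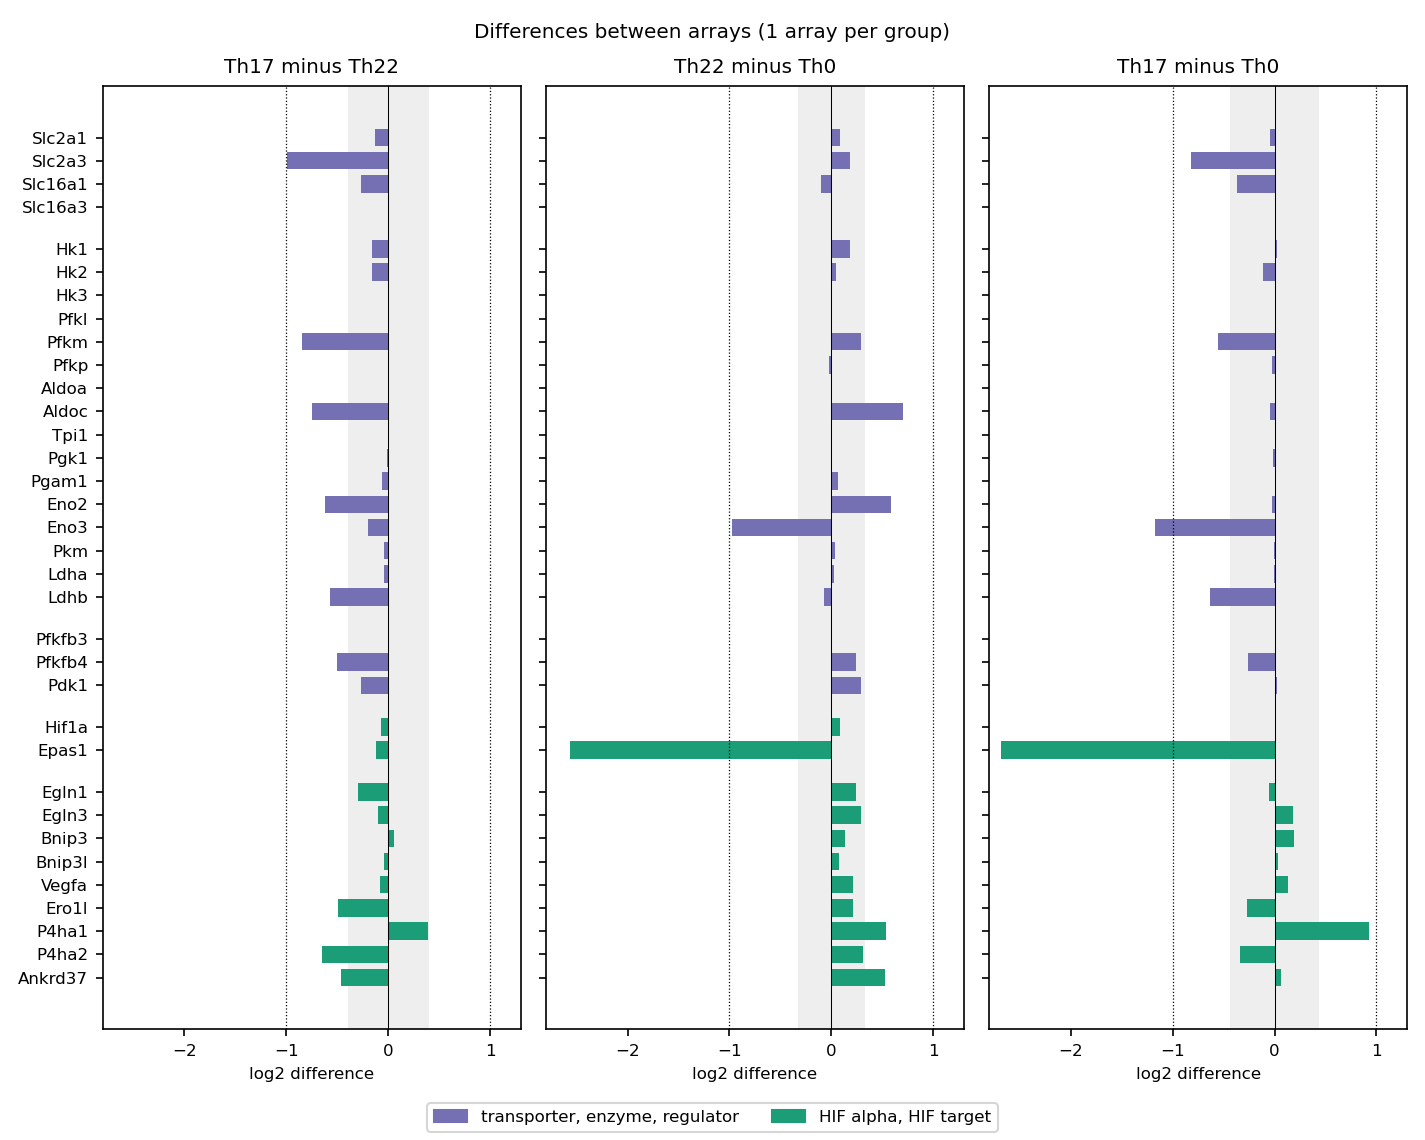
Log2 difference of each measured member between pairs of arrays (bars), with the probe range in grey and 2-fold marked by dotted lines. For Th17 minus Th22 no bar passes 2-fold, and those beyond the grey band all point towards Th22.

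The transporters differed by isoform. Slc2a3, which encodes the high-affinity glucose transporter GLUT3, stood at 0 on the Th0 array, 0.18 on Th22 and -0.82 on Th17. It was low on the Th17 array alone, 0.82 log2 (1.76-fold) below Th0 and 0.9966 log2 below Th22. Slc2a1, which encodes GLUT1, the main glucose transporter of activated T cells, stood at 0, 0.09 and -0.04 in the same order. Its differences all lay inside the probe range, so that the difference between Th17 and Th22 was 0.87 log2 larger in size for Slc2a3 than for Slc2a1. Slc16a1, which encodes the lactate carrier MCT1, stood at 0.10 on Th0, 0 on Th22 and -0.26 on Th17. Slc16a3, which encodes the lactate exporter MCT4, was equal on all arrays.

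Of the 16 measured enzymes 5 (31.2%) differed by at least 1.5-fold between some pair of arrays, against 8% of all genes. These were Pfkm, Aldoc, Eno2, Eno3 and Ldhb. Another 3 (Hk3, Pfkl and Tpi1) were equal on all arrays, as were 37.7% of all genes. The hexokinase genes trap glucose in the cell. Hk1 was 0.16 log2 and Hk2 0.16 log2 lower in Th17 than in Th22, both inside the probe range. With the 16 probes that match Hk1 together with other genes included, the Hk1 difference was -0.02 log2. Hk3 was equal on all arrays. At phosphofructokinase, the committing step, Pfkm (the muscle isoform) stood at 0 on Th0, 0.29 on Th22 and -0.56 on Th17. It was 1.80-fold lower in Th17 than in Th22, while Pfkl was equal on all arrays and Pfkp was 0.03 log2 higher on Th0 than on the others. Aldoc, the brain isoform of aldolase, stood at 0 on Th0, 0.70 on Th22 and -0.05 on Th17. It was high on the Th22 array alone, 1.63-fold above Th0 and 1.68-fold above Th17, whereas Aldoa, the aldolase isoform of most tissues, differed by 0.0018 log2 at most.

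The enolase genes differed in the place of Th0 and Th22. Eno2, the neuronal isoform, stood at 0 on Th0, 0.59 on Th22 and -0.03 on Th17, which made Th22 the high array (0.59 log2 above Th0 and 0.62 above Th17). Eno3, the muscle isoform, stood at 0.97 on Th0, 0 on Th22 and -0.20 on Th17. Here Th0 was the high array, 1.97-fold above Th22 and 2.26-fold above Th17, and 2.87% of all genes spanned a range as large as that of Eno3. The ratio of Eno2 to Eno3 therefore differed by 1.56 log2 between Th22 and Th0. Both genes were measured by 1 probe each.

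At lactate dehydrogenase, which turns pyruvate into lactate, Ldhb (the subunit best known from heart) stood at 0.07 on Th0, 0 on Th22 and -0.57 on Th17. Its pair of probes gave -0.67 and -0.46 log2 for Th17 minus Th22, so both placed Th17 lowest. Ldha, the subunit most associated with lactate production, stood at 0, 0.03 and -0.01. Of the remaining steps, those with a measured gene showed differences under 0.07 log2 in all comparisons. The steps of Gpi1 and Gapdh had no measured gene. Tpi1 (triose-phosphate isomerase) was equal on all arrays, Pgk1 (phosphoglycerate kinase) spanned 0.01 log2, Pgam1 (phosphoglycerate mutase) 0.07 and Pkm (pyruvate kinase) 0.04. A pair of the 3 Pgk1 probes carried identical values. Genes of this pathway have many pseudogene copies, so the assignment of signal to Pgk1, Pgam1, Pkm, Ldha, Ldhb and Aldoa is uncertain. The 25 probes that match Gapdh together with other genes differed between arrays by -0.03 to 0.01 log2, and 15 of them were equal on all arrays.

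Of the flux regulators, Pfkfb4 and Pfkfb3 encode enzymes that make and break down fructose 2,6-bisphosphate, the activator of phosphofructokinase. Pfkfb4 stood at 0 on Th0, 0.24 on Th22 and -0.26 on Th17, a difference of 0.50 log2 between Th22 and Th17 that exceeded the probe range. Pfkfb3 differed by 0.0046 log2 at most. Pdk1, a kinase that inhibits pyruvate dehydrogenase, stood at -0.02 on Th0, 0.27 on Th22 and 0 on Th17, inside the probe range. All 3 were highest in Th22.

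The HIF alpha subunits differed from each other. Epas1, which encodes HIF-2 alpha, stood at 2.57 on the Th0 array, 0 on Th22 and -0.12 on Th17. It was high in Th0 alone, 5.92-fold above Th22 and 6.43-fold above Th17, by 1 probe, and 102 of 19938 genes (0.512%) spanned a range at least as large. Hif1a stood at -0.02 on Th0, 0.07 on Th22 and 0 on Th17, a span of 0.08 log2. The partner and control genes varied less than Epas1: Arnt, which encodes the common beta subunit, differed by 0.0059 log2 at most, and Hif1an, which encodes the asparaginyl hydroxylase of HIF, was equal on all arrays. Vhl, whose product targets hydroxylated HIF alpha for degradation, was 0.57 log2 lower in Th17 than in Th22, and Hif3a 0.70 log2 lower. Of the 6 genes on that list 0 passed 2-fold in any comparison, where 738 of 19938 genes did. At that share a count of 0 does not set so short a list apart.

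The HIF targets outside glycolysis were all higher in Th22 than in Th0, in 9 of 9 genes, from 0.08 to 0.54 log2 around a median of 0.24. Of all genes 23.8% were higher in Th22 by some amount and 31.2% lower, and their median difference was 0. Among the 12431 genes not equal on all arrays, which include all 9 targets, 4736 were higher. Only P4ha1 and Ankrd37 exceeded the probe range in that comparison, and none reached 1.5-fold. For Th17 minus Th22, 7 of 9 were lower and 2 higher (median -0.10 log2), against 26.3% and 29.2% of all genes. For Th17 minus Th0, 6 were higher and 3 lower (median 0.06 log2), against 25.2% and 28.1%.

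Among the oxygen sensors, Egln1 (prolyl hydroxylase PHD2) stood at 0 on Th0, 0.24 on Th22 and -0.05 on Th17, and Egln3 (PHD3) at -0.19, 0.10 and 0. The mitophagy receptor gene Bnip3 stood at -0.13 on Th0, 0 on Th22 and 0.06 on Th17, and its relative Bnip3l spanned 0.08 log2. Vegfa, the vessel growth factor gene, stood at -0.13, 0.08 and 0. In these 5 genes Th0 was the lowest array except for Egln1, and no difference exceeded the probe range. Ero1l, whose product drives disulfide bond formation in the endoplasmic reticulum, stood at 0 on Th0, 0.22 on Th22 and -0.27 on Th17. Ankrd37, an ankyrin-repeat gene known as a HIF-1 target, stood at -0.06, 0.46 and 0, so it was high on Th22 alone, 1.44-fold above Th0 and 1.38-fold above Th17.

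The collagen prolyl 4-hydroxylase genes went different ways. P4ha1 stood at -0.54 on Th0, 0 on Th22 and 0.39 on Th17, a stepwise order that put Th17 1.90-fold above Th0. P4ha2 stood at 0 on Th0, 0.31 on Th22 and -0.34 on Th17, which put Th17 1.57-fold below Th22. The ratio of P4ha1 to P4ha2 thus differed by 1.27 log2 between Th17 and Th0. P4ha1 was the only member with Th17 more than 1.5-fold above another array.

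HIF binds a short hypoxia response element with the core ACGTG or GCGTG. To show where these letters lie, the cores were searched on both strands in windows of 250 bases before to 50 bases after annotated RefSeq starts (build GRCm38.p6), and 34 of the 37 members had a window listed. A palindromic match was counted on each strand, and the cores do not otherwise contain each other. The printed windows are those of the 4 members with the widest range over the arrays among those that hold ACGTG: P4ha1 at chr10:59323046-59323345, Pfkm at chr15:98092339-98092638, Aldoc at chr11:78322823-78323122 and P4ha2 at chr11:54100674-54100973, all on the plus strand. Capitals mark both cores on either strand, and reading is 5′ to 3′ along the gene. Pfkm had 4 windows listed and Aldoc 2, and the one with most ACGTG is shown.
P4ha1: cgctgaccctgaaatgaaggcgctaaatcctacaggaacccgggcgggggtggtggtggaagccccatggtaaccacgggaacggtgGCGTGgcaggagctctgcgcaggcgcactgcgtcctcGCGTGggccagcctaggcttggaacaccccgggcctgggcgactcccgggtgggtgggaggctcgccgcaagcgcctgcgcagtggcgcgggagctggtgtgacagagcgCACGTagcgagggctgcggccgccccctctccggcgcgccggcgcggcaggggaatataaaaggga
Pfkm: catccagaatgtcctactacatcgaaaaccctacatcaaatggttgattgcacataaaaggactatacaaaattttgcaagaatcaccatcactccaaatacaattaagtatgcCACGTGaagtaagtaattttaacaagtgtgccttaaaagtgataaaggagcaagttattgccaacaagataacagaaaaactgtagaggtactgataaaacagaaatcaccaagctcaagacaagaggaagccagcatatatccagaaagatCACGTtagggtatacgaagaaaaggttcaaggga
Aldoc: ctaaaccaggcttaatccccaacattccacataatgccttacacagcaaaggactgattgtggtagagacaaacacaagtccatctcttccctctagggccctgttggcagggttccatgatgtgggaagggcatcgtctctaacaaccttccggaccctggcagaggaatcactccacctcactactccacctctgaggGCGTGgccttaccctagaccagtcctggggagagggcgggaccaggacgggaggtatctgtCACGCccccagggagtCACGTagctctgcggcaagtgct
P4ha2: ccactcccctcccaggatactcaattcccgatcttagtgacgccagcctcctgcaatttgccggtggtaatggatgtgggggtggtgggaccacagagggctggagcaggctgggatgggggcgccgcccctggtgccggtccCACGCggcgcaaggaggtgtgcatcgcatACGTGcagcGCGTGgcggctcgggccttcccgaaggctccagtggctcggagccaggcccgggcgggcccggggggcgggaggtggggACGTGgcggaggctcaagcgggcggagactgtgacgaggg

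The 34 members with a window include Gapdh, Gpi1 and Eno1, which were not measured, and lack Slc2a3, Epas1 and Bnip3l. The core ACGTG was in at least 1 window of 24 of these 34 (70.6%). The share was 24.4% of the 15614 measured genes with a window and 21.8% of all 27025 genes with one. ACGTG was in 8 of 8 HIF targets outside glycolysis with a window and in 11 of 19 glycolytic enzymes. GCGTG was in 23 of 34 members (67.6%), against 44.4% of measured genes. Both cores contain a CG pair, and the members' windows held a median of 20 such pairs against 15 in the windows of measured genes. The part of that difference in the shares was not tested. Nor was the part of the number of windows, 48 for the 34 members and 19177 for the 15614 measured genes. Ldha had ACGTG 5 times in 1 window and Hif1a 3 times, counted by strand, while Ldha spanned 0.04 log2 over the arrays and Hif1a 0.08. Members known as HIF targets were chosen for the list, so the shares are a description of it. A match is a string of letters and not a bound site.

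**Figure D3:**
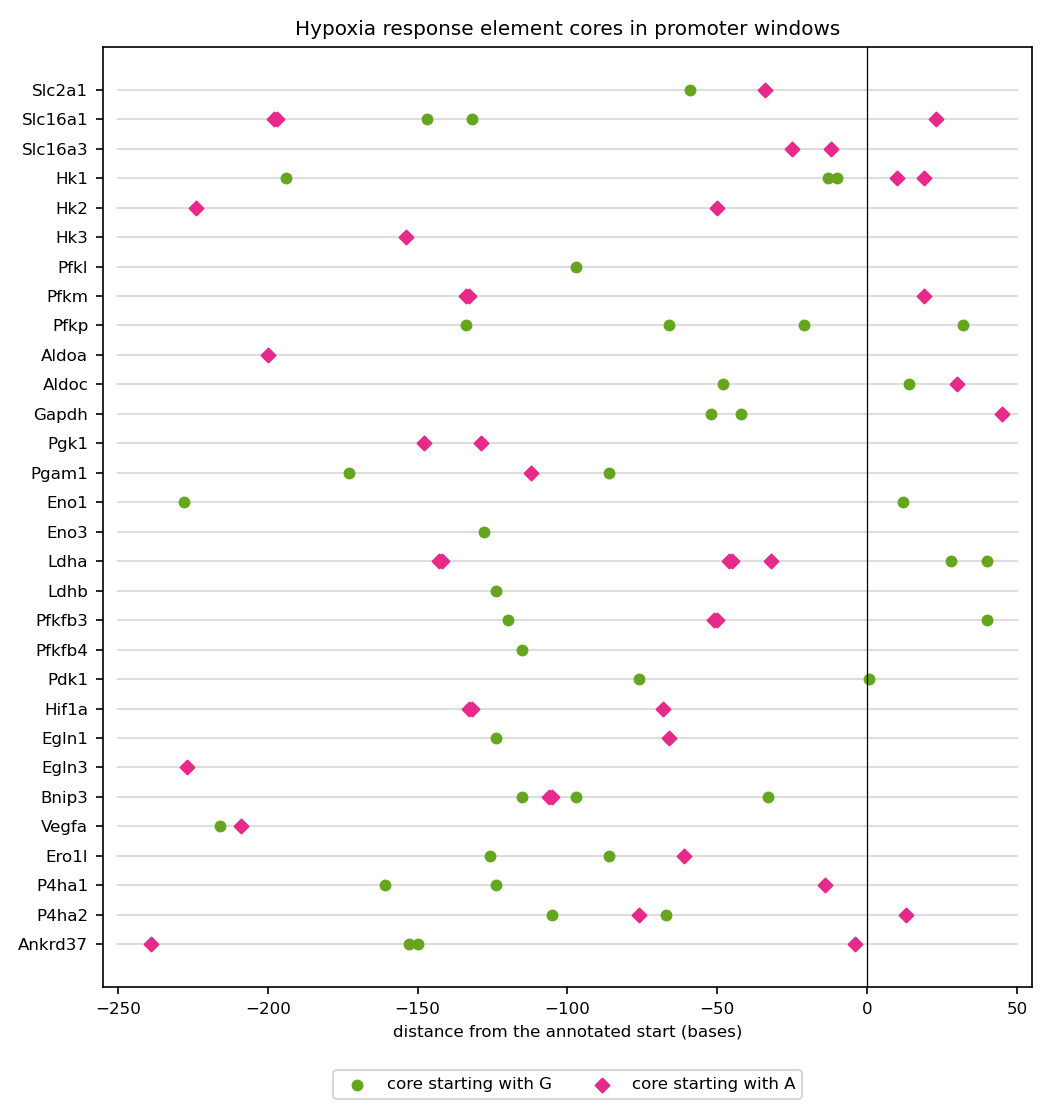
Positions of hypoxia response element cores, on either strand, relative to the annotated start (0) in the first listed window of each of the 30 members that hold one there. Diamonds mark cores that start with A and circles cores that start with G, and the matches spread along the whole window.

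Set side by side, the glycolytic enzymes and HIF targets outside glycolysis had Th22 highest at nearly equal shares of the genes that varied (10 of 13 and 7 of 9). Their medians differed most for Th22 minus Th0. The median of the 16 measured enzymes was 0.02 log2 for Th22 minus Th0, -0.05 for Th17 minus Th22 and -0.01 for Th17 minus Th0, each near the 0 of all genes. The HIF targets had 0.24, -0.10 and 0.06. Without the 3 enzymes equal on all arrays the enzyme medians were 0.03, -0.16 and -0.03, so for Th17 minus Th22 the enzymes then had the larger median in size. Th17 was below Th0 in 10 of 16 enzymes and above it in 2. It was above Th0 in 6 of 9 HIF targets and below it in 3, where 25.2% of all genes were above and 28.1% below. Most enzymes in the list are themselves known HIF-1 targets, so the groups are not separate programs by definition. The comparisons share arrays, and with 1 array each the difference between the groups was not tested. Beyond the probe range for Th17 minus Th22 were 9 members lower and 0 higher, against 5.78% and 3.51% of all genes. P4ha1, at 0.3863 log2, lay only just inside the limit of 0.3897. For Th22 minus Th0 they were 4 higher and 2 lower, against 4.4% and 2.44%. For Th17 minus Th0 they were 1 higher and 5 lower, against 4.26% and 4.97%.

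Other genes of these pathways were taken from lists made beside the members, also with earlier results of these data known. Of 35 further HIF targets 19 (54.3%) were highest in Th22, 26 were higher in Th22 than in Th0 (23.8% of all genes) and 24 lower in Th17 than in Th22 (26.3% of all genes). Among genes not equal on all arrays, 61.3% of 31 further targets were highest in Th22, against 22.1% of 12431 genes. On that basis the 26 and 24 of 31 stood beside 4736 and 5237 of 12431. Adm, which encodes the vasodilator peptide adrenomedullin, stood at -0.26 on Th0, 0.90 on Th22 and 0 on Th17, and was 2.23-fold higher in Th22 than in Th0. Selenbp1 was 3.60-fold lower in Th17 than in Th22 and Tmem45a 3.11-fold lower. Plod2, a lysyl hydroxylase gene of collagen, had the order of P4ha1, at -0.84 on Th0, 0 on Th22 and 1.14 on Th17, and was 3.95-fold higher in Th17 than in Th0. Stc2, the gene of a secreted glycoprotein, stood at 0.37 on Th0 and -0.82 on Th17, a 2.28-fold gap. In all, 1 of the 35 passed 2-fold upwards and 2 downwards for Th17 minus Th22, against 1.1% and 1.5% of all genes.

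Of 25 further glycolysis genes 4 (16%) were highest in Th22, against 13.8% of all genes. Galm, which encodes galactose mutarotase, an enzyme of galactose use, was 2.52-fold higher in Th17 than in Th22. Slc2a6, another glucose transporter family gene, stood at 0.55 on Th0 and -0.49 on Th17, a 2.06-fold gap. Genes of pyruvate dehydrogenase and the TCA cycle, which burn pyruvate in mitochondria, had another order: 14 of 22 (63.6%) were highest in Th0, against 18.5% of all genes, and 20 of 22 had Th17 below Th0 (median -0.18 log2), against 28.1% of all genes. Among genes not equal on all arrays, 66.7% of 21 were highest in Th0, against 29.6% of 12431. On that basis 20 of 21 had Th17 below Th0, against 5599 of 12431. Fh1 (fumarate hydratase) stood at 0.29 on Th0, 0 on Th22 and -0.73 on Th17, a 2.03-fold gap. Pcx (pyruvate carboxylase) was instead highest in Th22, 2.08-fold above Th17. Of 6 pentose phosphate genes 4 were highest in Th0 and 0 in Th22. Of 10 regulators of T cell metabolism 0 differed by 1.5-fold in any comparison, where 8% of all genes did. So short a list is not set apart by that count. Mycn was 0.47 log2 lower and Rheb, whose product activates mTORC1, 0.40 log2 higher in Th17 than in Th22, both beyond the probe range, while Myc spanned 0.04 log2 and Mtor 0.05.

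**Figure D4:**
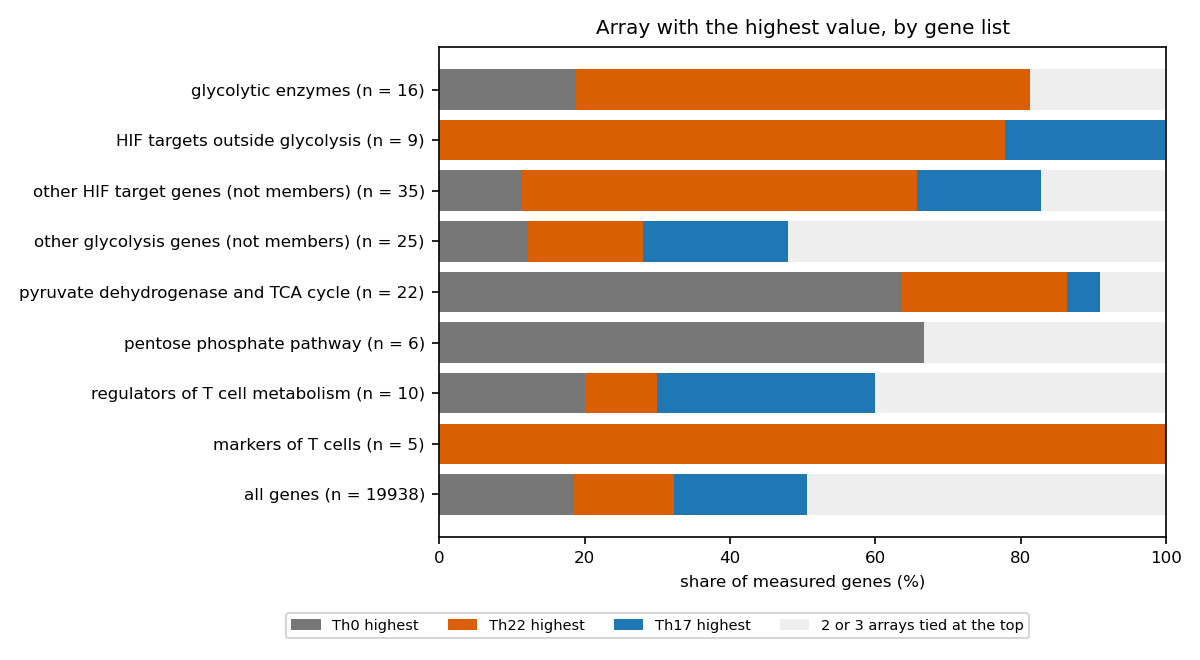
Share of the measured genes of each list (bars, in percent) whose highest value lay on the Th0, Th22 or Th17 array, with ties in light grey. Th22 takes 62.5% of glycolytic enzymes, 77.8% of HIF targets outside glycolysis and 100% of T cell markers but 13.8% of all genes, and Th0 takes 63.6% of the TCA cycle list.

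Of the markers of other cells that the cultures could hold, Cd8b1, a CD8 T cell marker, spanned the most: it was 1.14 log2 lower in Th17 than in Th22 and 1.38 log2 (2.61-fold) lower than in Th0, a wider gap than in any member but Epas1. Cd8a, the gene of the other CD8 chain, did not share this gap, at 0.15 log2 for Th17 minus Th22 and -0.05 for Th17 minus Th0. The NK cell markers Ncr1 and Klrb1c were equal on all arrays. Of 4 measured B cell markers 3 were equal on all arrays, and of 8 myeloid and dendritic markers 4 were, including Cd14, Csf1r, Itgam and Itgax. Lyz2 was 0.21 log2 and Fcgr3 0.20 log2 higher on Th0 than on the others, and Cd68 was 0.23 log2 higher on Th22 than on Th17. Because levels were removed from the deposited values, whether any of these markers, or the T cell markers themselves, were detected is unknown. Their part in the members' differences was not tested.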

How the data were processed

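Total RNA of 3 cultures (Th0, Th22 and Th17) was hybridised to 1 biotin-labelled Affymetrix array each, and each array was grouped by the T-helper subset in its labels. The deposited table held 28853 probes, each deposited as a difference from its own median array, on a scale taken as log2. The median was exactly 0 for all 28853 probes. The summarisation, the normalization and the base of the logarithm were not given in the sources used here. Folds assume base 2, and with natural logs each would be larger. Larger values were read as more RNA.

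Gene names came from the platform annotation, updated by Entrez identifier against a GRCm38.p6 gene table, in which 21698 of the 21789 single-symbol probes were found. Left out were 1621 probes with several symbols and 5443 that the annotation does not list. Probes of a gene were averaged, and no filter on low values was possible. Promoter windows came from RefSeq. The members, lists and the rule for named genes (a range of at least 1.5-fold for members and 2-fold for other listed genes) were chosen with earlier results of these data known. Beside them, a few more genes were named after their values were seen: among them the HIF pathway genes, the metabolism regulators and the cell markers. The counting was run on simulated data with planted shifts larger than 2-fold. That run checked the code and does not bear on differences as small as those of most members. Analyses used Python 3.11.15, pandas 2.3.3 and numpy 2.4.6. Alternatives covered scaling, probe choice, threshold and log base. No sample was left out. The number of arrays limits the precision.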

Additional observations from a re-analysis of the deposited data

How the results depend on the processing

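The counts of members past 2-fold in the 3 comparisons were 0 for Th17 minus Th22, 1 (Epas1) for Th22 minus Th0 and 2 (Epas1 and Eno3) for Th17 minus Th0. They were the same under centring on the probes that vary, which left the members' differences unchanged. Leaving out genes equal on all arrays could not change them either, since such genes cannot pass 2-fold. They were also the same with probes of several symbols included, which bear only on Gapdh and Hk1, and with the probe of largest spread. Epas1 and Eno3 have 1 probe each, so probe choice could not move them. These settings were therefore weak checks of the counts. Quantile normalization, which forces equal spread on the arrays, gave 2 for Th22 minus Th0, adding Eno3 at -1.29 log2. It left Slc2a3 (-0.50 log2) and Ldhb (-0.41 log2) under 1.5-fold for Th17 minus Th0 and P4ha2 (-0.58 log2) for Th17 minus Th22, with 0 members turned. A 1.5-fold threshold gave 5, 4 and 5 members in the order above. Natural logs, an alternative chosen after seeing the data, gave 3, 3 and 4. The 30 recomputed medians of enzymes and HIF targets kept their sign. Those of the enzymes ran from -0.16 to -0.04 log2 for Th17 minus Th22, where -0.16 came from leaving out members equal on all arrays (also chosen after seeing the data), from 0.0018 to 0.03 for Th22 minus Th0 and from -0.03 to -0.0044 for Th17 minus Th0. Those of the HIF targets ran from -0.12 to -0.10, from 0.24 to 0.27 and from 0.06 to 0.08. The count of 23 members highest in Th22 was the same under every scaling and probe choice run, of which only quantile normalization changed the values of most members. No paired analysis was possible because each group had 1 array. Signal over background is unknown, since the centred values carry no level.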
